A study of Mus musculus with 30 samples.

Results

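The effect of the TRα1PV receptor that is common to 3 macrophage states was measured as the average of 3 genotype differences, TRα1PV minus WT within M0, within M1 and within M2, with equal weight. All 30 libraries of the study entered this average, and it was computed for the 15686 genes that passed a filter on low counts, of 55414 in each file. The cells were macrophages that had been grown in a dish from mouse bone marrow, with medium conditioned by L929 cells as a source of growth factor. They came from WT mice and from mice that the labels describe as transgenic for a mutated thyroid hormone receptor α1 (TRαPV). After 7 days of culture with 15 or 20% conditioned medium they were left unpolarized (M0), were polarized with LPS at 20 ng/mL plus interferon-γ at 20 ng/mL (M1), or with 20 ng/mL of interleukin-4 (M2). WT M0, WT M1, WT M2, TRα1PV M0, TRα1PV M1 and TRα1PV M2 each held 5 libraries of polyA-selected RNA, called biological replicates in the labels. Whether each came from an animal of its own is not stated, and neither are the zygosity of the mutation and the age of the mice, so p-values measure the spread between these libraries. The mutation was present from the start of the culture, so the measured differences hold any effect on differentiation as well as on the polarized cells.

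Thyroid hormone receptors are nuclear receptors that sit on DNA together with a retinoid X receptor. Without the hormone T3 they recruit corepressors and hold their target genes down, and with T3 they exchange these for coactivators. TRα1, made from the Thra gene, is 1 of the receptors that bind T3. The PV form has an altered end that cannot bind T3, so it keeps the corepressors bound and also counteracts the normal receptor. Klf9, which encodes a Krüppel-like transcription factor, is a T3-induced gene in many tissues.

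Libraries held 23015952 to 59086252 reads counted in genes, and 8.84 to 14.7% of the reads that were in a gene or in none fell outside genes. In M0 that percentage was 9.68 to 14.2% in WT and 12 to 14.7% in TRα1PV, and its part in the averages was not tested beyond the fit that holds it as a covariate, in which 2658 of the 4111 genes called below were called. Summed levels of 14 macrophage markers were 31729 to 36690.1 CPM in WT M0 and 28568 to 33978 CPM in TRα1PV M0, and lay at 9535 to 11521 CPM and 8327 to 11615 CPM in M1. In M2 they were 21691 to 24373.5 CPM in WT and 20404 to 23183.5 CPM in TRα1PV. Of the 14 markers, 5 were called lower (3 with the covariate, 2 without M0) and 2 higher on average, beside 14.6 and 11.6% of all genes tested. Overlap of the sums therefore does not show that the single markers were level. CPM, the unit of all levels here, is a read count divided by the library's scaled total. Xist was read in every library, and Ddx3y, Uty, Kdm5d and Eif2s3y had at most 2 reads in any library. WT M0 replicate 2 stood furthest from the other libraries of its group, and leaving it out raised the genes called on average from 1817 to 2440 higher and from 2294 to 2909 lower.

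Averaged over the 3 states, 1817 genes (11.6% of those tested) were higher and 2294 (14.6%) lower in TRα1PV than in WT, 4111 or 26.2% in all. Calls were made with edgeR's quasi-likelihood test where the p, after Benjamini-Hochberg adjustment over all genes tested, was under 0.05. Most of these changes were small: the median size was 0.26 on the log2 scale, 3420 of the 4111 were under 1.5-fold, and 236 reached 2-fold (100 higher, 136 lower). For comparison, the test within a state called 4072 genes (26.0%) in M0, 3132 (20.0%) in M1 and 2055 (13.1%) in M2. Of the 4111 genes, 534 were called in no single state, 1969 in 1 state, 1267 in 2 and 341 in all 3.

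An average can hide a difference of sign, so the signs in the 3 states were read beside it. Of the 4111 genes, 2804 (68.2%) had 1 sign in M0, M1 and M2: 1165 higher (7.43% of the genes tested) and 1639 lower (10.4%). Among the 11575 genes not called on average, 18.0% had 1 sign. The other 1307 called genes (31.8%) had mixed signs, and the state that went against the others was M1 in 934 of them, M2 in 231 and M0 in 142. A stricter reading asks for a call in each state: 110 genes (0.701%) were called higher and 198 (1.26%) lower in all 3 states. These 308 compare with 91 genes that were called in all 3 states with mixed signs.

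The genotype difference was also tested for being unequal among the 3 states, with 2 degrees of freedom, and 4371 genes (27.9%) passed. Among the 2804 called genes with 1 sign, 564 passed this test and 2240 did not (940 higher, 1300 lower), which does not show that their 3 differences were equal. The strictest group held the genes whose 5 WT and 5 TRα1PV libraries did not overlap in CPM in any of the 3 states: 158 genes, 49 higher (0.312%) and 109 lower (0.695%). Of the 4111 called genes 77 had a group with 3 reads or fewer over its 5 libraries, and of the 158 only Dcn and Slc36a2 did. All 158 were called on average and 138 in all 3 states. The tests used the same values that set these genes apart, so such calls add no further support. In 96 of the 158 the 3 log2 differences lay within 0.5 of each other. The difference among states was called in 65 of the 158 (41.1%), beside 27.9% of all genes tested. The median distance between the largest and smallest of the 3 differences was 0.36 in the 158 and 0.41 in all genes tested. Closeness of the 3 differences is thus not particular to this group. The median size of the average in the 158 was 0.70 on the log2 scale.

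**Figure D1:**
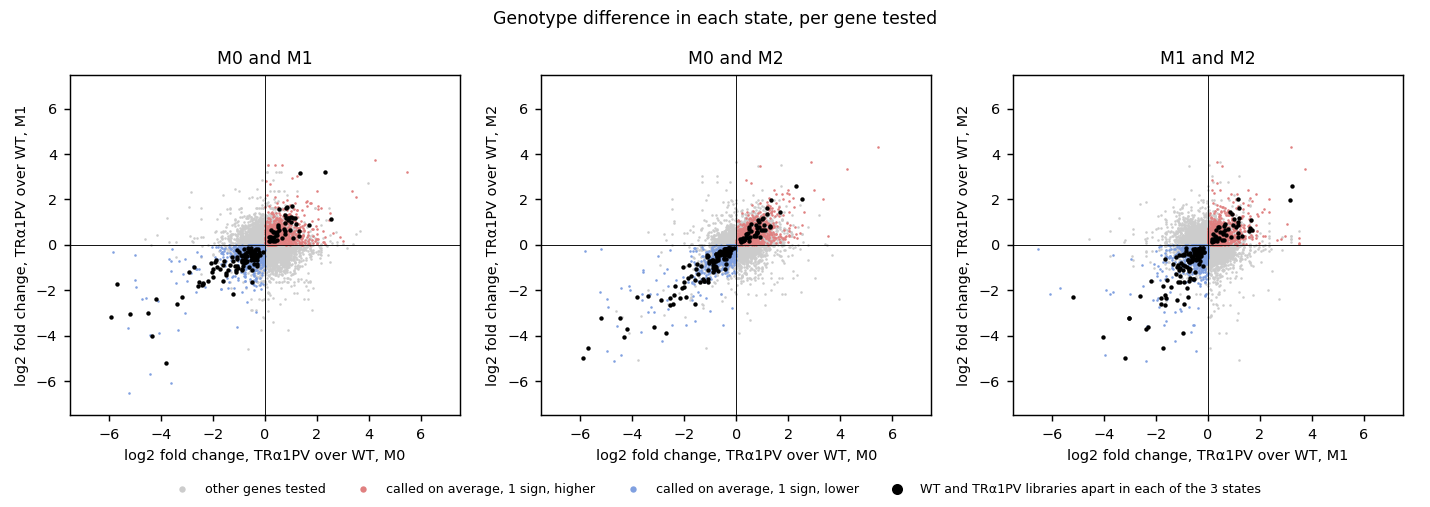
Log2 fold change of TRα1PV over WT in one state (x axis) against another (y axis) for each of the 15686 genes tested, with 5 libraries per group; colours mark the 1165 higher and 1639 lower genes that were called on average with 1 sign, and black marks the 158 genes whose libraries did not overlap in any state. The cloud is drawn out along the diagonal for M0 and M2 and nearly round for M0 and M1 and for M1 and M2.

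Across all genes tested, the difference in M0 had a Pearson correlation of 0.56 with that in M2, of 0.17 with that in M1, and M1 and M2 had 0.13. These are descriptions across genes, which are not independent replicates. No state shares libraries with another, but same-numbered cultures of different states may share an animal, which is not stated. Each state was then left out and read with the genes called in the same direction in the other two. With M0 left out, 142 of 160 higher genes (88.8%) and 237 of 254 lower genes (93.3%) kept their sign in M0, beside 48.5 and 51.3% of all genes tested. Of the 160 and 254, 110 (68.8%) and 198 (78%) were also called there, beside 12 and 14% of all genes. With M2 left out, 220 of 250 higher genes (88.0%) and 396 of 423 lower genes (93.6%) kept their sign, beside 48.7 and 51.1% of all genes. With M1 left out, 270 of 542 higher genes (49.8%) and 448 of 721 lower genes (62.1%) had the same sign in M1, beside 49.9% of all genes tested for either sign. In M1, 110 of the 542 (20.3%) were also called higher and 198 of the 721 (27.5%) lower, beside 9.74 and 10.2% of all genes. Calls in the opposite direction numbered 35 of the 542 (6.46%) and 47 of the 721 (6.52%), a smaller share than among all genes. The count of genes that M0 and M2 moved in 1 direction was thus the largest of the 3 pairs, and M1 shared it least.

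**Figure D2:**
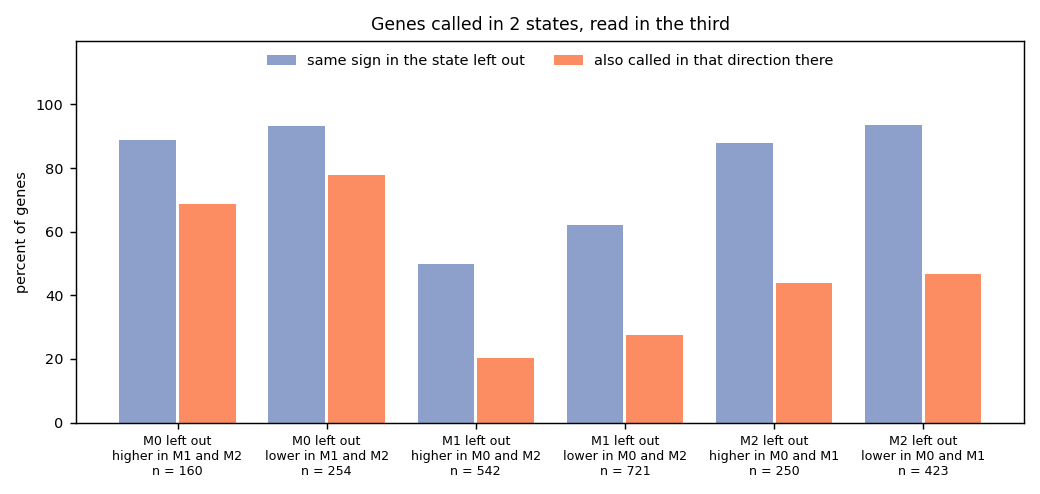
Percent of genes (y axis) that were called in the same direction in 2 states and had the same sign (blue) or a call in that direction (orange) in the state left out, with the number of genes under each pair of bars. The blue bars stand at 88.0 to 93.6% for M0 and M2 left out, and at 49.8 and 62.1% for M1.

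Thra, which encodes the receptor itself, was higher in TRα1PV in every state. The 5 WT libraries of M0 had 26.9, 24.3, 22.3, 25.8 and 23 CPM, and the TRα1PV libraries 58.2, 61.1, 56.9, 50.8 and 53.5 CPM. Thra reached 35, 21.1, 21.4, 28.5 and 22.3 CPM in WT M1 and 53.8, 45.4, 51.7, 48.9 and 46.1 CPM in TRα1PV M1. For M2 the levels were 18.1, 15.6, 16.4, 17.3 and 16.6 CPM in WT and 46.3, 43.3, 43.6, 41.7 and 42.1 CPM in TRα1PV. The lowest TRα1PV library was above the highest WT library in each state, and WT M1 was the most spread. The average log2 difference was 1.17 ± 0.06 (2.25-fold, edgeR adjusted p = 4.38e-16), with 1.2 ± 0.10 in M0, 0.94 ± 0.10 in M1 and 1.37 ± 0.10 in M2 (adjusted p of the difference among states = 0.0481). The counts do not tell the mutant from the normal transcript, nor TRα1 from the other products of the gene. Nr1d1, a clock repressor encoded on the opposite strand at the 3′ end of Thra, was 0.44 ± 0.09 on average (adjusted p = 0.000302), and as no source used here states whether counting used strand, reads of the 2 genes cannot be told apart where they overlap. Thrb, the gene of the other receptor, was read mostly in M2, with 831 reads over the 5 WT libraries and 964 over the TRα1PV libraries. It had 70 and 51 reads in M0 and 1 and 2 in M1, and no average is given for it because both M1 groups lie under a floor of 3 reads.

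Klf9 had the smallest p of all genes tested, and it was lower in TRα1PV. Klf9 levels in M0 were 14.4, 16.9, 14.4, 14.4 and 16.8 CPM in WT and 1.33, 0.812, 0.93, 1.19 and 1.19 CPM in TRα1PV. Under M1 conditions WT held 25.3, 22.4, 29.7, 36.7 and 23.5 CPM and TRα1PV 0.538, 0.629, 0.787, 0.793 and 0.988 CPM. Values of 66.4, 74.3, 69.6, 82 and 60 CPM in WT and of 14.6, 17.3, 14.1, 13.8 and 11.5 CPM in TRα1PV were found in M2. The highest TRα1PV library was below the lowest WT library by a wide gap in each state. In WT the level was lowest in M0 and highest in M2. The average log2 difference was -3.77 ± 0.09 (13.6-fold lower, adjusted p = 3.91e-24). Its sign was shared by the 3 states but its size was not: -3.81 ± 0.15 in M0, -5.19 ± 0.17 in M1 and -2.31 ± 0.12 in M2 (adjusted p of the difference = 7.84e-10). In M2 the TRα1PV cells held about as much Klf9 as WT M0 cells, 14.3 ± 2.05 against 15.4 ± 1.35 CPM (SD, n = 5), and these groups were not compared by a test.

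The largest average decreases among the genes without overlap in any state, at a mean log2 CPM no lower than 0, were in Col1a2, Bgn, Asb4, Klf9 and Mmp8. Col1a2 encodes a chain of type I collagen, the main fibre of connective tissue. In M0, Col1a2 stood at 1.76, 4.13, 0.982, 4.93 and 5.18 CPM in the WT libraries and at 0.045, 0.157, 0, 0.0478 and 0.0555 CPM in the TRα1PV libraries. The M1 libraries gave 0.137, 0.596, 0.137, 0.318 and 0.632 CPM for WT and 0, 0.118, 0, 0.0756 and 0 CPM for TRα1PV. WT libraries in M2 held 0.497, 3.11, 0.662, 2.94 and 2.12 CPM, and TRα1PV libraries 0, 0.196, 0.118, 0 and 0 CPM. The TRα1PV libraries had no read or few reads, while WT libraries were highest in M0. Over the 5 libraries of a group, reads numbered 656 in WT M0 and 13 in TRα1PV M0, 49 and 5 in M1, and 318 and 11 in M2. The fitted average was -4.7 ± 0.50 (adjusted p = 2.13e-08). WT replicates 1 and 3 were low for Col1a2 in each state.

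Bgn encodes biglycan, a small proteoglycan of the extracellular matrix. The 5 WT libraries of M0 had 1.84, 5.33, 0.835, 3.76 and 3.65 CPM, and the TRα1PV libraries 0.113, 0.419, 0.0591, 0.0956 and 0.139 CPM. Bgn reached 0.888, 1.3, 0.274, 1.02 and 1.42 CPM in WT M1 and 0.108, 0.0786, 0.0358, 0.0756 and 0 CPM in TRα1PV M1. For M2 the levels were 1.1, 1.68, 0.29, 1.98 and 1.4 CPM in WT and 0.0273, 0.196, 0.148, 0.019 and 0.0247 CPM in TRα1PV. Again every TRα1PV library was below every WT library of its state, and WT replicate 3 was the lowest WT library in each state. The average was -4.13 ± 0.37 (adjusted p = 7.70e-10), and the 3 states gave -4.33 in M0, -4.01 in M1 and -4.04 in M2.

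Asb4 encodes a substrate-binding subunit of a ubiquitin ligase. Asb4 levels in M0 were 2.21, 3.27, 1.72, 3.1 and 3.13 CPM in WT and 0.0225, 0.0786, 0.0443, 0.0478 and 0.0555 CPM in TRα1PV. Under M1 conditions WT held 0.273, 0.224, 0.582, 0.494 and 0.316 CPM and TRα1PV 0.143, 0.0786, 0.0715, 0.0378 and 0.216 CPM. Values of 7.59, 8.68, 6.7, 8.19 and 6.36 CPM in WT and of 0.464, 0.253, 0.444, 0.227 and 0.247 CPM in TRα1PV were found in M2. The genotypes were far apart in M0 and M2 and close to each other, at low levels, in M1. The average was -3.98 ± 0.19 (adjusted p = 4.13e-16), made of -5.7 in M0, -1.71 in M1 and -4.54 in M2 (adjusted p of the difference = 0.000136).

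Mmp8 encodes neutrophil collagenase, a metalloproteinase that cuts fibrillar collagen. In M0, Mmp8 stood at 60.2, 93.3, 81.1, 65 and 84.3 CPM in the WT libraries and at 3.71, 3.28, 4.03, 3.84 and 2.08 CPM in the TRα1PV libraries. The M1 libraries gave 22.3, 8.65, 15.5, 20.2 and 8.53 CPM for WT and 1.76, 2.28, 2.36, 1.89 and 1.14 CPM for TRα1PV. WT libraries in M2 held 61.5, 66.9, 73.3, 56.8 and 57.3 CPM, and TRα1PV libraries 6.27, 7.52, 8.11, 6.56 and 5.09 CPM. WT levels were lower in M1 than in M0 or M2, and TRα1PV levels were low in all 3 states. The average was -3.58 ± 0.13 (11.9-fold lower, adjusted p = 2.05e-18), with the largest gap in M0 (-4.48 ± 0.23).

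At the same minimum level, the next decreases without overlap were between 3.40 and 8.12-fold on average. Gdf3, a ligand of the TGF-β family, was -3.02 ± 0.22 (adjusted p = 7.33e-12), and Mmp27, another metalloproteinase, was -2.75 ± 0.12 (adjusted p = 8.30e-17). Ccnd2, the cyclin D2 that drives entry into the cell cycle, averaged 3.87 ± 1.14 CPM in WT M0 and 0.729 ± 0.0969 in TRα1PV M0 (SD, n = 5). Its level was far higher in M1, at 262.8 ± 65 CPM in WT and 76.4 ± 15.5 in TRα1PV. There its log2 difference was smallest (-1.78 ± 0.14), and the average over the states was -2.27 ± 0.11. The chemokine gene Cxcl14 was -2.17 ± 0.13, and Lrrc32, which encodes a receptor that holds latent TGF-β at the cell surface, was -2.09 ± 0.16. Lrrc32 was read mostly in M2, at 11.9 CPM in WT and 2.55 in TRα1PV. Its WT and TRα1PV means were 0.438 and 0.0855 CPM in M0 and 0.658 and 0.204 CPM in M1. Cuedc1 and Mfap3l were at -2.04 ± 0.08 and -1.76 ± 0.12. For Ccnd2, Cuedc1, Cxcl14 and Mmp27 the 3 states differed in size (adjusted p of the difference = 0.0212, 0.0107, 0.000554 and 0.00226). For Gdf3, Lrrc32 and Mfap3l this test did not pass.

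Among the genes without overlap in any state, at the same minimum level, increases were smaller, and the fitted average was highest in Adcy2, Slc36a2, Tnfsf8, Abca9 and F13a1. Adcy2 encodes an adenylyl cyclase, which makes cAMP. The 5 WT libraries of M0 had 0.397, 0.689, 0.565, 0.686 and 1.2 CPM, and the TRα1PV libraries 3.31, 2.52, 2.82, 3.58 and 5.13 CPM. Adcy2 reached 0.0342, 0.0746, 0.137, 0.177 and 0.118 CPM in WT M1 and 0.574, 0.786, 1.25, 0.756 and 1.76 CPM in TRα1PV M1. For M2 the levels were 0.193, 0.261, 0.207, 0.18 and 0.322 CPM in WT and 1.39, 0.73, 0.947, 1.59 and 2.4 CPM in TRα1PV. Levels were low in both genotypes, and the groups were apart in each state. The average was 2.7 ± 0.22 (6.51-fold, adjusted p = 6.96e-11), with 2.3 in M0, 3.22 in M1 and 2.58 in M2.

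Slc36a2 encodes a proton-coupled transporter of small amino acids. Slc36a2 levels in M0 were 0.255, 0.23, 0.221, 0.243 and 0.276 CPM in WT and 0.743, 0.419, 0.635, 0.574 and 0.776 CPM in TRα1PV. Under M1 conditions WT held 0, 0.0373, 0, 0 and 0 CPM and TRα1PV 0.0717, 0.0786, 0.107, 0.0756 and 0.123 CPM. Values of 3.4, 5.31, 5.63, 4.35 and 4.19 CPM in WT and of 13.3, 20.2, 18.5, 15.3 and 22.4 CPM in TRα1PV were found in M2. Both genotypes were highest in M2, and nearly no read was seen in M1. The 5 M1 libraries together held 13 reads in TRα1PV and 1 read in WT, a ratio of 12.7 with a 95% exact interval of 1.91 to 539.7 for counting error only. The fitted average of 2.17 ± 0.27 (adjusted p = 3.66e-07) is no usable fold, since WT M1 lies under the floor of 3 reads, and its place in that order rests on M1. The differences in M0 and M2 were 1.35 ± 0.23 and 1.98 ± 0.14, and their average without M1 was 1.66 (adjusted p = 8.43e-11), below that of Tnfsf8 over the same states (2.28).

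Tnfsf8 encodes the ligand of CD30. In M0, Tnfsf8 stood at 1.05, 0.561, 0.957, 0.509 and 1.14 CPM in the WT libraries and at 4.77, 5.24, 6.6, 4.64 and 2.94 CPM in the TRα1PV libraries. The M1 libraries gave 1.5, 1.94, 2.02, 1.59 and 2.17 CPM for WT and 4.3, 4.44, 3.93, 3.32 and 4.47 CPM for TRα1PV. WT libraries in M2 held 0.497, 0.174, 0.207, 0.21 and 0.161 CPM, and TRα1PV libraries 1.04, 1.04, 0.977, 1.06 and 1.06 CPM. The TRα1PV libraries were higher in every state, and WT M2 was the lowest group. The average was 1.9 ± 0.14 (3.74-fold, adjusted p = 5.13e-12), with unequal sizes of 2.54 in M0, 1.15 in M1 and 2.02 in M2 (adjusted p of the difference = 0.00309).

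Abca9 encodes a lipid transporter of the ABC class. The 5 WT libraries of M0 had 37, 61, 44.4, 33.4 and 44.4 CPM, and the TRα1PV libraries 123, 143, 154, 129 and 164 CPM. Abca9 reached 0.239, 0.261, 0.377, 0.318 and 0.355 CPM in WT M1 and 0.395, 0.55, 0.465, 0.416 and 0.957 CPM in TRα1PV M1. For M2 the levels were 8.73, 11.6, 9.72, 11 and 8.16 CPM in WT and 20.7, 27, 29.1, 25.3 and 33.8 CPM in TRα1PV. Expression in M1 was a small fraction of that in M0 in both genotypes, and the M1 difference alone was not called (adjusted p = 0.102). The average was 1.34 ± 0.14 (2.54-fold, adjusted p = 1.82e-08).

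F13a1 encodes the A subunit of coagulation factor XIII, a transglutaminase that monocytes and macrophages make. F13a1 levels in M0 were 497, 446, 432, 508 and 423 CPM in WT and 1102, 1114, 1039, 973 and 968 CPM in TRα1PV. Under M1 conditions WT held 4.17, 4.1, 5.21, 4.03 and 3.24 CPM and TRα1PV 10.3, 9.0, 11.3, 8.39 and 8.18 CPM. Values of 56.1, 39.4, 38.8, 55.6 and 34.6 CPM in WT and of 149, 131, 139, 141 and 125 CPM in TRα1PV were found in M2. Its level was high in M0 and low in M1 in both genotypes, and every TRα1PV library stood above every WT library of its state. The average was 1.32 ± 0.07 (2.5-fold, adjusted p = 3.05e-15), with 1.17 ± 0.11, 1.18 ± 0.13 and 1.61 ± 0.11 in M0, M1 and M2 (adjusted p of the difference = 0.0529). Taken alone, the M2 difference lay 0.44 above that of M0, with a 95% interval of 0.12 to 0.76.

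**Figure D3:**
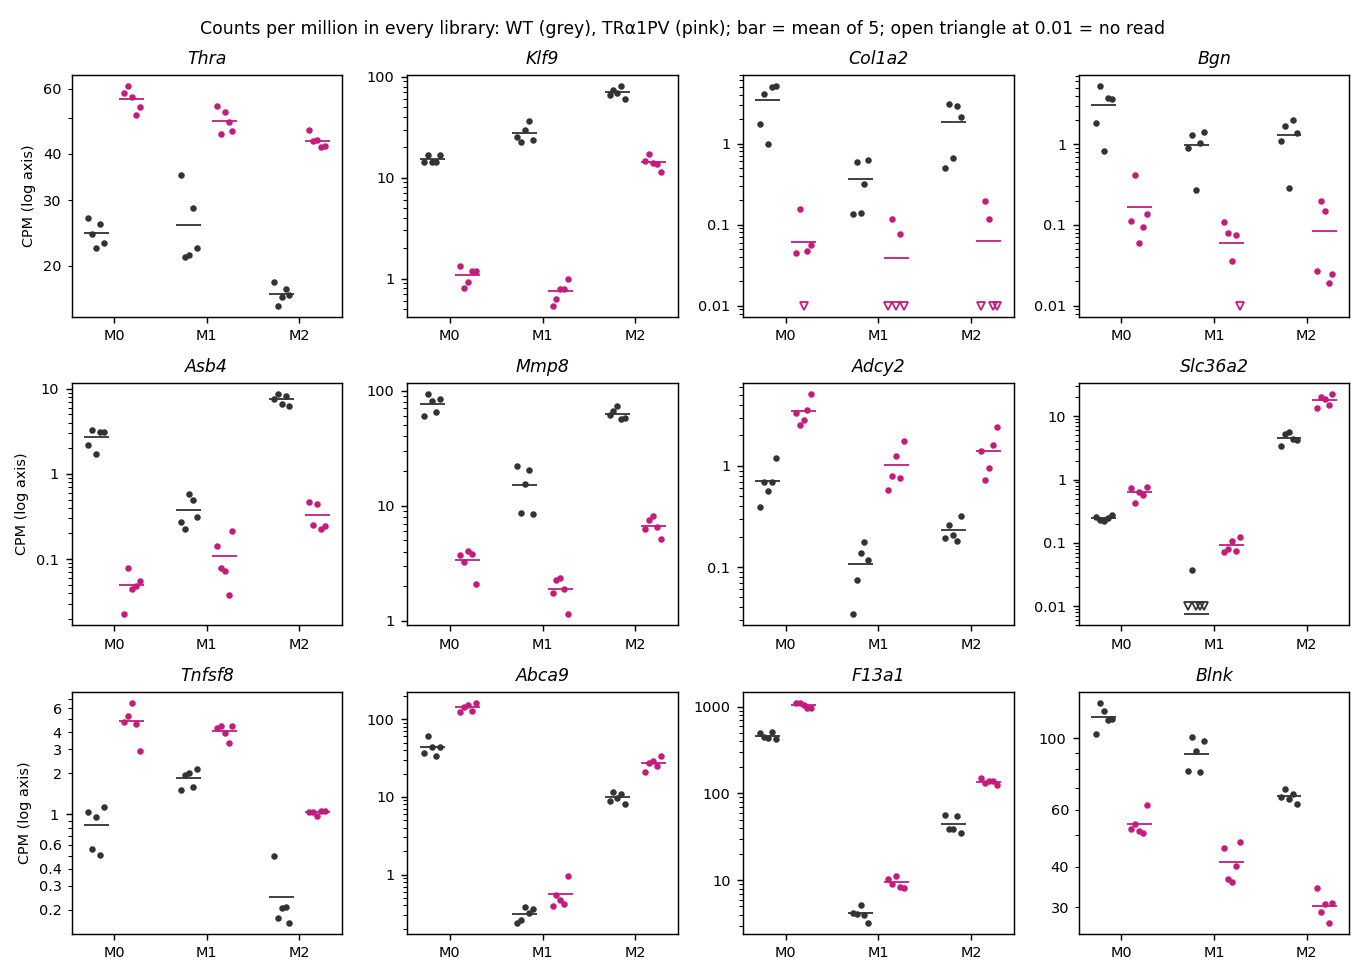
CPM on a log axis (y) in each of the 30 libraries, by state (x), for 12 genes; dots are single libraries, bars the mean of 5, grey WT and pink TRα1PV, and open triangles drawn at 0.01 are libraries without a read. In each panel the WT and TRα1PV dots of a state do not overlap, which is how most of these genes were chosen. The level itself moves between states by far more for F13a1 and Abca9 than for Thra and Blnk.

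The increases that followed lay between 2.05 and 2.29-fold. Armcx2 and Armcx6, of a family of mitochondrial armadillo-repeat proteins on the X chromosome, were 1.2 ± 0.10 and 1.14 ± 0.12 on average (adjusted p = 1.14e-10 and 8.15e-09). Tgm1, the keratinocyte transglutaminase, was 1.13 ± 0.10, and Ggt5, an enzyme that cleaves glutathione and leukotriene C4, was 1.03 ± 0.09. Fam78b was 1.04 ± 0.11. Sirpb1c, a signal-regulatory protein gene with close paralogs that could share reads, was 1.05 ± 0.09. Armcx2, Tgm1 and Sirpb1c rose most in M1 (1.67, 1.69 and 1.62; adjusted p of the difference = 0.0236, 0.00781 and 0.00895). Armcx6, Fam78b and Ggt5 did not pass that test.

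The 8 smallest p-values of the average belonged to Klf9, Mmp8, Ighm, Cuedc1, Gnptab, Blnk, Mmp27 and Traf3ip2, all lower in TRα1PV. Blnk encodes the adaptor that links immunoreceptors with SYK to downstream signalling. Its levels were 116 ± 9.45 CPM in WT and 54.2 ± 4.46 in TRα1PV in M0, 89.5 ± 10.3 and 41.2 ± 5.39 in M1, and 66 ± 2.53 and 30.3 ± 2.72 in M2 (SD, n = 5). The log2 differences were nearly the same, -1.1 ± 0.08, -1.12 ± 0.08 and -1.12 ± 0.08, for an average of -1.11 ± 0.05 (adjusted p = 6.92e-17). The difference between M1 and M0 was -0.01, with a 95% interval of -0.26 to 0.23, and between M2 and M0 -0.02, with -0.26 to 0.22.

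Cd5l, which encodes the secreted macrophage protein AIM, was singled out after its values were seen, because its 3 differences were close to each other. It averaged 206 ± 31.6 CPM in WT and 68.4 ± 14.3 in TRα1PV in M0, and the log2 differences were -1.59 in M0, -1.57 in M1 and -1.55 in M2, -1.57 ± 0.08 on average (adjusted p = 2.50e-15). The M1 difference lay 0.02 from that of M0, with an interval of -0.39 to 0.43. Gnptab, which encodes the enzyme that tags lysosomal hydrolases with mannose 6-phosphate, was -1.05 ± 0.05, and its M0 decrease was larger than the others (-1.34 in M0, -0.88 in M1 and -0.93 in M2, adjusted p of the difference = 0.00357). Traf3ip2, the adaptor of the interleukin-17 receptor, was -1.59 ± 0.07 and fell least in M1 (-0.80 ± 0.11, adjusted p of the difference = 7.31e-06).

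Ighm, the immunoglobulin μ heavy chain gene, shows what an average can cover. It fell by 4.99 in M0 and by 4.68 in M2 on the log2 scale, but was -0.47 ± 0.28 in M1, where the adjusted p was 0.258. The average of -3.38 ± 0.13 (adjusted p = 3.85e-18) is thus no description of M1, and the difference among states had an adjusted p of 1.82e-09. Levels were 230.2 ± 22.3 CPM in WT M0 and 7.28 ± 1.48 in TRα1PV M0, and 1.13 ± 0.318 and 0.807 ± 0.295 in M1.

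**Figure D4:**
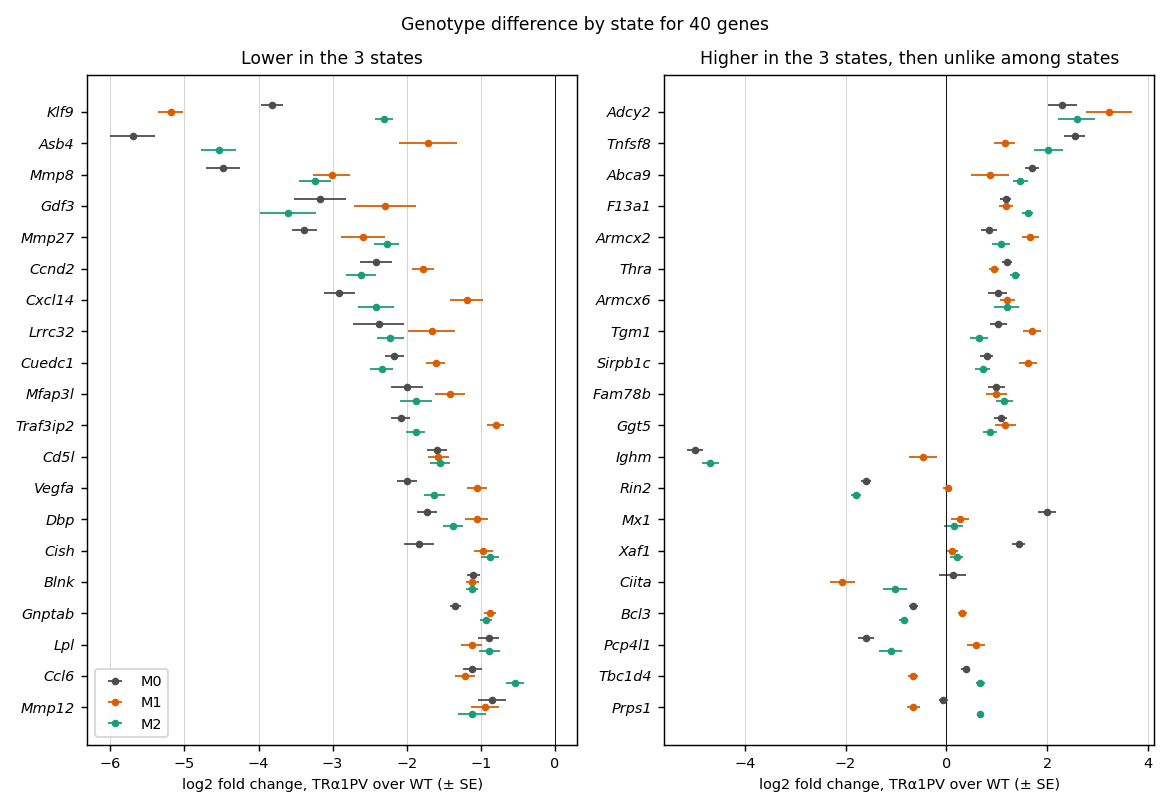
Log2 fold change of TRα1PV over WT (x axis, ± SE, 5 libraries per group) in M0 (grey), M1 (orange) and M2 (green) for 40 named genes. Blnk, Cd5l and Fam78b have 3 points that nearly coincide, Klf9 and Asb4 keep 1 sign with unequal sizes, and Ighm, Mx1, Ciita, Bcl3 and Prps1 have at least 1 state apart from the others.

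Promoter windows are shown for a few of the genes without overlap in any state, to let the sequence be read beside the values. They are the 250 bases before the gene start in RefSeq on GRCm38.p6, a build other than that of the counts, and the motif is the half-site of nuclear receptors, AGGTCA, searched on both strands (TGACCT on the other) and marked in capitals. The motif of a pair in direct repeat with 4 bases between, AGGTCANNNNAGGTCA, was in none of the windows of the 10441 tested genes with a window. The half-site was in 10.6% of those windows and in 13.8% of all 27025 in the table. Of the genes without overlap in any state, 8 of 84 lower genes with a window held it (9.52%) and 7 of 34 higher genes (20.6%). A match is a description of these letters only, and the window leaves out enhancers and most of each gene. Blnk, Ccl6, Cxcl14 and Tgm1 were taken from the genes whose window holds a match, so they do not stand for the genes without overlap. Klf9 on the plus strand (chr19:23140976-23141225) has no match in its window and is shown whole, and the windows of Blnk (chr19:40994233-40994298), Ccl6 (chr11:83593140-83593205), Cxcl14 (chr13:56296646-56296711) and Tgm1 (chr14:55713639-55713704), all on the minus strand, are cut to the match with 30 bases on each side.
Klf9: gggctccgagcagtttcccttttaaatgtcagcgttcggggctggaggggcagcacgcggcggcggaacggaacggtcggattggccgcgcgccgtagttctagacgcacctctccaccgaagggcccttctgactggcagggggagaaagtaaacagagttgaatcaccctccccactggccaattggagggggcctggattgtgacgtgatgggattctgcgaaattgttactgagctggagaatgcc
Blnk: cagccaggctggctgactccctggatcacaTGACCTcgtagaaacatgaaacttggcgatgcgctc
Ccl6: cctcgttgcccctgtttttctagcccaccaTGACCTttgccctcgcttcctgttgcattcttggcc
Cxcl14: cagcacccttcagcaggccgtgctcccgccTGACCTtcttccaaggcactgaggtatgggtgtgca
Tgm1: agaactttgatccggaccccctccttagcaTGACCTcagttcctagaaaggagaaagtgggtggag
The first 3 of the genes with a match fell and Tgm1 rose, and the match began 47 bases before the start in Blnk, 88 in Ccl6, 130 in Cxcl14 and 182 in Tgm1.

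Of all genes tested, 14.6% were called lower and 11.6% higher on average, which is the background for every list below. Genes known to respond to T3 in other tissues were mostly lower. Of 16 tested, 9 were called lower and 0 higher on average (14.6 and 11.6% of all genes tested), 7 of the 9 with 1 sign, and the median was -0.19 on average (-0.41 in M0, -0.22 in M1 and -0.23 in M2), beside -0.000487 on average for all genes tested. State by state, 9 were called lower in M0, 4 in M1 and 7 in M2, and 2 in all 3 states. Calls of higher levels numbered 1 in M0 and 1 in M1. The difference among states was called for 11 of the 16. Besides Klf9, the mitochondrial glycerol-3-phosphate dehydrogenase gene Gpd2 fell by 0.43 (adjusted p = 2.84e-08) and Cpt1a, the gate of fatty acid entry into mitochondria, fell by 0.31 (adjusted p = 1.54e-06), and for both the 3 states did not differ by the test. Tgm2, tissue transglutaminase, fell by 0.76 on average but by 1.14 in M0 and 1.04 in M2, and was -0.11 ± 0.11 in M1 (adjusted p of the difference = 4.17e-05). Of 23 tested receptors, partners and transporters of the hormone, 10 were called higher and 1 lower (Slc16a10), and all 10 had 1 sign. Apart from Thra they were small changes: Rxra, the DNA-binding partner, was 0.39 ± 0.04, the amino acid and hormone transporter Slc7a8 0.28 ± 0.04 and the coactivator Ncoa1 0.19 ± 0.03. Rxra was 0.07 in M0 and 0.75 in M1 (adjusted p of the difference = 0.000234).

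Interferon-stimulated genes had the most calls of any list, and within single states nearly all were in M0. Of 40 type I interferon-stimulated genes, 33 were called higher on average and none lower, and the median was 0.51 on average (1.25 in M0, 0.07 in M1 and 0.13 in M2). Taken alone, M0 called 39 of them higher and M1 and M2 1 each, the difference among states was called for 38, and none was called in all 3 states. The average over M1 and M2, without M0, called 1 higher and 1 lower. Mx1, an antiviral GTPase, was 2.0 in M0, 0.27 in M1 and 0.14 in M2, Xaf1 was 1.43 in M0, 0.11 in M1 and 0.20 in M2, and Stat2, which carries the signal of type I interferon, was 1.0 in M0, 0.28 in M1 and 0.27 in M2 (adjusted p of the difference = 7.99e-06, 5.55e-06 and 0.000999). Of 23 genes induced by interferon-γ, 14 were called higher and 1 lower on average, none of them with 1 sign, and without M0 the counts were 0 and 4. Gbp9 was 1.43 in M0, -0.18 in M1 and 0.49 in M2, and Ciita, the master regulator of MHC class II genes, was 0.13 in M0, -2.07 in M1 and -1.03 in M2, in the opposite direction (adjusted p of the difference = 1.33e-05 and 0.000304).

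MHC class II genes, which present antigen to helper T cells, were lower on average, without a call in M0. Of 14 tested, 9 were called lower and 0 higher, 7 with 1 sign, at a median of -0.17 on average (-0.09 in M0, -0.38 in M1 and -0.35 in M2). Taken by state, 0 were called in M0, 7 lower in M1 and 6 lower in M2. The 9 became 7 with the covariate, 6 with libraries averaged to 5 against 5 and 5 without replicate number 1. H2-Ab1 was -0.44 in M0, -1.24 in M1 and -1.26 in M2 and H2-Eb1 -0.16 in M0, -1.96 in M1 and -1.23 in M2, on average -0.98 ± 0.16 and -1.12 ± 0.19 (adjusted p = 3.66e-05 and 4.10e-05), and neither was called in M0. Of 25 genes of classical activation, 9 were lower and 4 higher (2 higher without M0). Cd38, which breaks down NAD, fell by 1.65 on average (adjusted p = 1.07e-06), with -2.76 in M0, -0.95 in M1 and -1.25 in M2. The M2 difference was not called (adjusted p = 0.126). Cd38 was well expressed only in M1, at 271 CPM in WT and 140 in TRα1PV. Its means were 2.34 and 0.356 CPM in M0 and 0.321 and 0.131 CPM in M2. The receptor gene Slamf7 fell by 0.33 (adjusted p = 2.12e-05). The 28 genes of alternative activation were split, 8 higher and 5 lower (3 lower with the covariate or without M0). Cish, a feedback inhibitor of STAT5 and STAT6 signalling, fell by 1.22 with -1.84 in M0, -0.97 in M1 and -0.87 in M2 (adjusted p = 9.63e-12), whereas the VEGF receptor gene Flt1 rose by 0.76 and Il4ra, the interleukin-4 receptor, by 0.55 (adjusted p = 4.67e-07 and 1.79e-06).

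Of 34 genes of Toll-like receptor and NF-κB signalling, 12 were lower and 2 higher on average. Cd14, the co-receptor for LPS, was -0.74 in M0, -1.03 in M1 and -0.91 in M2 and fell by 0.89 (adjusted p = 2.37e-07), and the kinase gene Irak2 fell by 0.36. Tlr5, the flagellin receptor, rose by 1.06 with 1.15 in M0, 1.07 in M1 and 0.96 in M2 (adjusted p = 8.97e-11). For these 3 genes the states did not differ by the test. Of 25 cytokines and chemokines, 8 were higher and 3 lower, beside 11.6 and 14.6% of all genes tested. The 3 that fell were the chemokine genes Ccl6 (-0.96 ± 0.07), Cxcl14 and Cxcl16 (-0.41 ± 0.04), and the largest of the named increases was Ccl12 (1.53 ± 0.15, adjusted p = 8.32e-09), at 2.62 in M0, 0.51 in M1 and 1.45 in M2.

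Of the lists of energy metabolism, the tricarboxylic acid cycle had the largest share of genes called lower, and the sizes were small. Of 21 genes of the tricarboxylic acid cycle, 11 were called lower and 1 higher, 10 of the 11 with 1 sign, at a median of -0.13 on average (-0.17 in M0, -0.08 in M1 and -0.07 in M2). Idh1, which this list counts although it encodes the cytosolic NADP isocitrate dehydrogenase and not the enzyme of the cycle itself, fell by 0.33. Ogdh fell by 0.20 (adjusted p = 9.07e-08 and 1.27e-05). Of 59 nuclear genes of oxidative phosphorylation, 19 were lower and 0 higher, at a median of -0.11 on average (-0.20 in M0, -0.00 in M1 and -0.13 in M2), and the complex I subunit genes Ndufa1 and Ndufs4 fell by 0.27 and 0.21. The count for oxidative phosphorylation hung on single libraries: it was 31 without WT M0 replicate 2, and 10 to 12 without any 1 of 10 others (WT M0 replicate 1, WT M1 replicates 2 and 5, WT M2 replicate 5, TRα1PV M0 replicates 3, 4 and 5, TRα1PV M1 replicate 4, and TRα1PV M2 replicates 4 and 5). Of the 59, 9 were called lower with libraries averaged to 5 against 5, 6 with the percentage of reads outside genes as covariate and 4 without M0, and of the 21 genes of the cycle 5 were called with the covariate and 5 without M0. Of 23 genes of fatty acid oxidation, 5 were lower and 1 higher, beside 14.6 and 11.6% of all genes tested. With the covariate 2 were called lower, and 3 in 5 against 5 or without M0. The thiolase gene Hadhb fell by 0.17. None of 15 mitochondrially encoded genes was called on average, at a median of 0.06 (0.15 in M0, -0.53 in M1 and 0.55 in M2), and 7 were called lower with the covariate. Tested against a fold of 1.2, none of Idh1, Ogdh, Ndufa1, Ndufs4 and Hadhb passed.

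Of 32 genes of glycolysis and targets of hypoxia-inducible factor 1, 12 were lower (5 without M0) and 2 higher on average, of which 2 and 1 had 1 sign. Vegfa, the endothelial growth factor, fell by 1.56 with -1.99 in M0, -1.06 in M1 and -1.63 in M2 (adjusted p = 8.24e-16), and Pfkfb3, which sets the pace of glycolysis, by 0.60 (adjusted p = 9.52e-11). Ndrg1 rose by 0.66, with 0.50 in M0, 0.77 in M1 and 0.70 in M2. Hk3, a hexokinase, was -0.94 in M0, 0.13 in M1 and -0.58 in M2 (adjusted p of the difference = 1.33e-05). Of 30 genes of cholesterol and fatty acid synthesis, 11 were higher and 1 lower (Scd1; 4 lower without WT M2 replicate 4), 5 of the 11 with 1 sign, at a median of 0.16 on average (0.09 in M0, 0.01 in M1 and 0.31 in M2). The 11 became 5 with libraries averaged to 5 against 5, 5 without M0 and 7 with the covariate. Hmgcs1, which makes the precursor of mevalonate, was 0.24 in M0, -0.01 in M1 and 0.61 in M2, and Insig1, the sterol sensor's anchor, 0.28 in M0, -0.02 in M1 and 0.53 in M2. Of 14 targets of the oxysterol receptor LXR, 7 were lower (3 without M0) and 3 higher: Lpl, lipoprotein lipase, fell by 0.97 (-0.90 in M0, -1.13 in M1 and -0.89 in M2) and Nr1h3, LXRα itself, by 0.83, whereas the cholesterol exporter gene Abca1 rose by 0.40 (adjusted p = 1.10e-10, 4.36e-07 and 1.63e-05). Of 35 lysosomal genes, 9 were lower and 2 higher; 4 were lower and 5 higher with the covariate, and 5 were lower in 5 against 5 and 3 without M0.

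**Figure D5:**
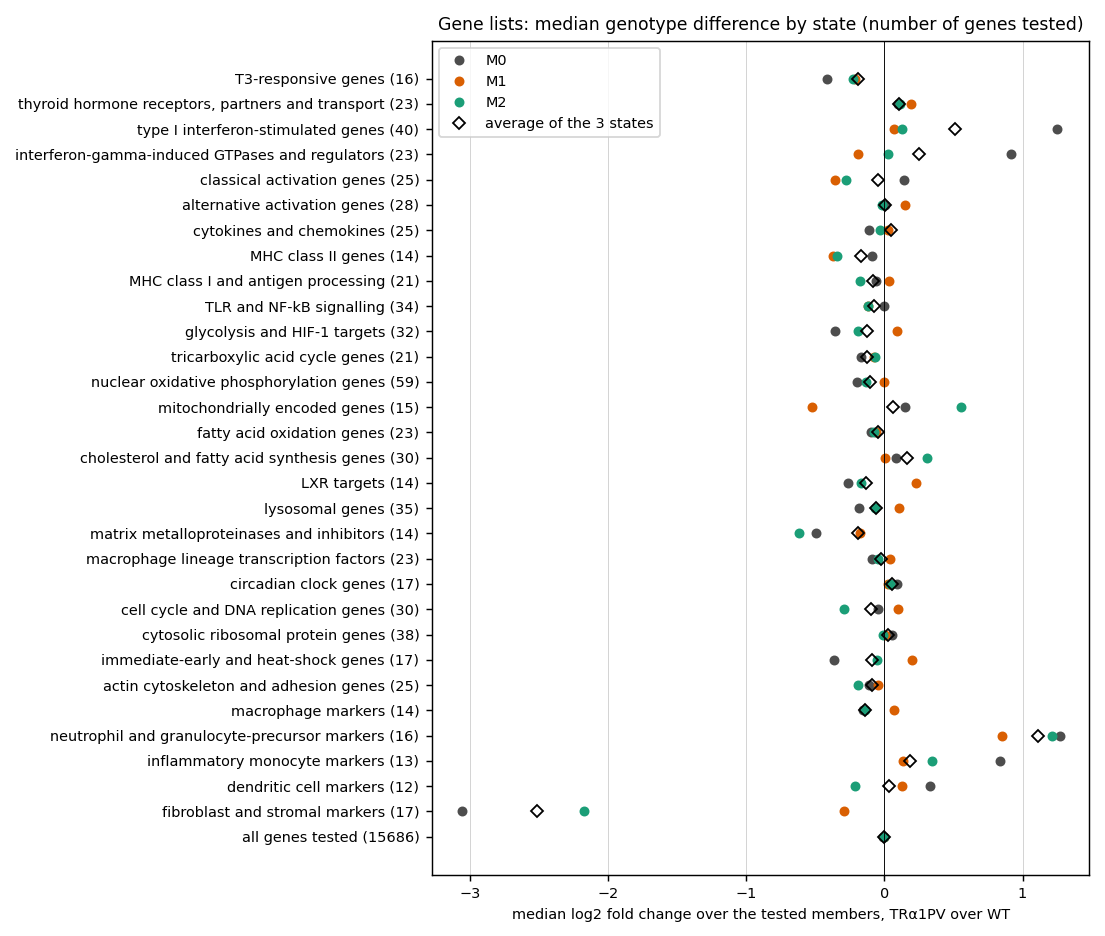
Median log2 fold change of TRα1PV over WT (x axis) over the tested members of each list with at least 10 of them (number in brackets), in M0 (grey), M1 (orange) and M2 (green) and for the average (open diamond). The type I interferon-stimulated genes stand at 1.25 in M0 and near 0 in M1 and M2, and the fibroblast markers are below 0 in each state.

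Of 14 matrix metalloproteinases and inhibitors, 6 were lower and 2 higher, and all 6 had 1 sign. With Mmp8 and Mmp27 fell Mmp12, macrophage elastase, by 0.97 (-0.85 in M0, -0.95 in M1 and -1.12 in M2) and Mmp9, gelatinase B, by 1.66 (-1.47 in M0, -1.46 in M1 and -2.06 in M2), and for neither did the states differ by the test. Of 25 genes of the actin cytoskeleton and adhesion, 10 were lower and 1 higher (5 higher with the covariate). Rin2, a Rab5 exchange factor, was -1.59 in M0, 0.02 in M1 and -1.79 in M2 (adjusted p of the difference = 1.45e-10). The integrin gene Itgb7 was -0.93 in M0, -1.04 in M1 and -1.05 in M2 and Icam1 -0.50 in M0, -0.40 in M1 and -1.01 in M2, while Itga6 was the 1 that rose, by 0.45 (adjusted p = 1.71e-07, 7.66e-09 and 4.25e-08). The 23 lineage transcription factors were split, 4 higher (2 without M0) and 5 lower (3 with the covariate), beside 11.6 and 14.6% of all genes tested. Runx1 was higher by 0.29 and Bhlhe40 was at -0.61 ± 0.08. Of 17 clock genes, 3 were higher (5 without TRα1PV M1 replicate 4, 6 with the covariate) and 2 lower, and Dbp, a clock output factor, fell by 1.39 (-1.73 in M0, -1.06 in M1 and -1.38 in M2, adjusted p = 7.03e-14). Of 30 genes of the cell cycle and DNA replication, 0 were higher and 4 lower (2 with the covariate), near the 14.6% of all genes tested. Mcm3, a subunit of the replicative helicase, was -0.37 in M0, -0.42 in M1 and -0.40 in M2. Of 38 cytosolic ribosomal protein genes 1 was called (Rps24, higher), at a median of 0.02; with the covariate, 19 were called higher.

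Markers of fibroblasts and stroma were lower on average, most of all in M0 and M2. Of 17 tested, 12 were called lower and 0 higher, 9 of the 12 with 1 sign, at a median of -2.52 on average (-3.06 in M0, -0.29 in M1 and -2.18 in M2). Their summed level was 10.3 to 33.8 CPM in WT M0 and 3.98 to 6.68 CPM in TRα1PV M0, 13.5 to 17 CPM and 12.2 to 15.4 CPM in M1, and 8.77 to 23.3 CPM and 5.24 to 9.74 CPM in M2, so the sums overlapped between genotypes in M1 and M2. Sparc, a matrix protein, was -4.2 in M0, -2.37 in M1 and -3.69 in M2. Col6a3, a chain of collagen VI, was -4.14 in M0, 0.45 in M1 and -3.87 in M2 (adjusted p of the difference = 9.23e-07). Of the other defining markers, Lum, Pdgfra, Thy1 and Loxl1 had at most 13 reads in any library and were not tested. In bulk RNA, fewer cells of a type and less RNA per cell cannot be told apart, and the part of such cells in the decreases of Col1a2 and Bgn was not tested.

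Of 16 markers of neutrophils and their precursors, 9 were called higher and 2 lower on average, all with 1 sign, at a median of 1.11 on average (1.27 in M0, 0.85 in M1 and 1.22 in M2). Ngp, a granule protein, rose by 1.65 and S100a8, a calcium-binding alarmin, by 1.19 (adjusted p = 3.97e-05 and 3.63e-05), and the 2 that fell were Mmp8 and Csf3r (-0.73 ± 0.05), the receptor of G-CSF. The summed level of the 16 overlapped between genotypes in each state, at 362 to 513 CPM in WT M0 and 295 to 507 CPM in TRα1PV M0. Csf3r and Mmp8, the 2 that fell, weighed heavily in that sum. Their means were 218 and 76.8 CPM in WT M0 and 106 and 3.39 CPM in TRα1PV M0. The overlap of the sums therefore does not show that the other markers were level. Ly6g and Retnlg, defining markers of mature neutrophils, had at most 11 reads in a library. Of 13 inflammatory monocyte markers 3 were higher and 0 lower (5 higher without WT M0 replicate 1, WT M2 replicate 1 or TRα1PV M0 replicate 5, and with the replicate block), F13a1 among them. Of 12 dendritic cell markers, 1 was higher and 2 lower, beside 11.6 and 14.6% of all genes tested. Batf3 was the 1 that rose, and Itgax was at -0.89 in M0, -0.38 in M1 and -0.87 in M2. The part of such cells in the averages was not tested.

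B cell markers were read because Ighm and Blnk are among them. Of 14, 5 were tested, and the other 9, among them Ms4a1, Cd79a, Pax5 and Igkc, had at most 15 reads in any library. Ighm and Blnk fell, while Cd79b, a chain of the B cell receptor, rose by 0.62 (adjusted p = 0.000201). Markers of T and NK cells had at most 7 reads in a library for 14 of 17. Of 6 endothelial markers tested, 2 were higher and 2 lower, Pecam1 and Kdr by 0.60 and 0.93 and Eng at -0.71 ± 0.07, with Cdh5 as the other that fell. Pf4, the platelet chemokine, which macrophages also make, rose by 0.61 with 0.88 in M0, 0.50 in M1 and 0.45 in M2.

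Some genes changed in opposite directions between states, and most of these are left out by the average. In 481 genes (3.07% of those tested) the genotype difference was called in at least 2 states with opposite signs, and 433 of these were not called on average. The rule for named genes took the 8 with the smallest p of the difference. Of these, Bcl3, Pcp4l1, Plekho2, Por and Pstpip1 were called lower on average all the same, and Tbc1d4, Tpcn1 and Prps1 were not called. Bcl3, an atypical IκB protein, was -0.66 in M0, 0.32 in M1 and -0.85 in M2, and Pcp4l1, Plekho2 and Por, the electron donor of cytochrome P450 enzymes, had the same order of signs, with M1 above WT: -1.6 in M0, 0.58 in M1 and -1.1 in M2 for Pcp4l1, -0.60 in M0, 0.25 in M1 and -0.34 in M2 for Plekho2 and -0.79 in M0, 0.25 in M1 and -0.22 in M2 for Por. Pstpip1, an adaptor of the actin cytoskeleton, was -0.12 in M0, 0.28 in M1 and -0.58 in M2. Tbc1d4, a Rab GTPase activator known from glucose transport, was 0.39 in M0, -0.67 in M1 and 0.67 in M2, and the lysosomal channel gene Tpcn1 was -0.05 in M0, 0.59 in M1 and -0.30 in M2. Prps1, which makes the precursor of nucleotides, was -0.06 in M0, -0.66 in M1 and 0.67 in M2, so that its average was -0.01 ± 0.05. In all 8, M1 was on the other side of M2.

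The place of the genes was read from the order of tested genes in a GRCm38 annotation, with no coordinates. Among the 50 tested genes nearest to Thra, 25 on each side, 4 were called higher and 10 lower on average (28.0%, beside 26.2% of all genes), from -0.71 to 1.25. Without overlap in the 3 states were 2 of the 50, beside 1.01% of all genes tested. Some of the 158 genes without overlap are next to each other: Mmp12, Mmp8 and Mmp27, Pon2, Asb4 and Slc25a13, Rsad1 and Acsf2, Tmem51 and Tmem51os1, and Fcgr4 and Fcgr3. Each of these runs moved in 1 direction, the first 4 lower and the last higher. The number of such runs to be met among any 158 tested genes was not worked out. Without the strand setting, reads of overlapping neighbours such as Tmem51 and Tmem51os1 cannot be told apart, and Fcgr4 and Fcgr3 are paralogs that could share reads.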

How the data were processed

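PolyA RNA of 30 libraries was sequenced, and the authors deposited raw counts per Ensembl gene, 1 file per library and not normalized. Per the submitters' processing notes, GRCm39, Trimmomatic 0.39, HISAT2 2.2.1, Cufflinks, HTSeq 1.99.2, FastQC 0.11.9, edgeR, limma and R 4.3.2 were used, with no role or order given. Annotation release and strand setting: not given in the sources used here. Reads outside genes stayed out of library sizes and tests. Of 55414 genes, 52081 received a symbol from a GRCm38 annotation (800 of 801 list symbols matched, 11 of them by an older name).

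Genes were filtered by group (minimum count 10, minimum total 15). A quasi-likelihood model with 6 group means (edgeR 4.0.16, R 4.3.3, TMM scaling, 24 residual degrees of freedom) gave the average contrast, each state's contrast and the test of their difference, two-sided and adjusted over 15686 genes at 0.05. Standard errors are the log2 fold change over the root of F. CPM used TMM-scaled library sizes. Code was tested on simulated data. No 2 libraries were alike within sampling noise: over 60 pairs within groups, chi-square divided by its degrees of freedom was at least 6.28. Precision is set by the 5 libraries per group more than by depth. A floor of 3 reads over a group marks genes without a usable fold.

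The labels number libraries 1 to 5 in each group under a batch tag. Deviations of same-numbered WT and TRα1PV libraries correlated from -0.37 to 0.26 (M0), from -0.17 to 0.17 (M1) and from -0.02 to 0.21 (M2), and no number was read as shared by both genotypes in the reported fit. Within a genotype, the mean correlation of same-numbered libraries was 0.0241 to 0.184 over the 6 pairs of states.

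Alternatives were median-of-ratios scaling, DESeq2 1.42.0, limma-voom (limma 3.58.1), no filter, a replicate block, a block within genotype, libraries averaged to 5 against 5, the percentage of no-feature reads as covariate, an additive model, averages over 2 states, a test against a fold of 1.2, and leaving out each library or each number. Named genes were Thra and Thrb, the 12 largest increases and decreases without overlap in any state and with a mean log2 CPM no lower than 0, the 8 smallest p, the 8 most opposed, and up to 4 called members of each of 37 lists with the smallest p, of which some are not reported here. Genes named beside these, such as Cd5l, Dcn, Rps24 and Cdh5, were chosen after their values were seen. The lists, the tests and the choice of the averaged contrast were made with earlier results of these data known.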

Additional observations from a re-analysis of the deposited data

Results flagged for a closer look

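Of all 15686 genes tested, 4371 (27.9%) passed edgeR's test of a difference among M0, M1 and M2. Bcl3, Pcp4l1, Plekho2, Por, Pstpip1, Tbc1d4, Tpcn1 and Prps1 were named for opposite signs and a small p in this same test. The count among the named genes is therefore in part set by how they were chosen. Of the 97 genes named, 55 differed in the size or sign of the genotype difference among M0, M1 and M2 (edgeR's test with 2 degrees of freedom, adjusted p under 0.05 over all genes), so for them the average is not a description of every state. Among those with a negative difference in all 3 states, the adjusted p of the difference was 7.84e-10 for Klf9, 1.82e-09 for Ighm, 7.31e-06 for Traf3ip2, 4.17e-05 for Tgm2, 0.000136 for Asb4, 0.000322 for Cxcl16, 0.00036 for Csf3r, 0.000554 for Cxcl14, 0.000854 for Cd38, 0.00151 for Vegfa and 0.0017 for Mmp8. It was 0.00173 for Ndufa1, 0.00226 for Mmp27, 0.00321 for Pfkfb3, 0.00357 for Gnptab, 0.00455 for Idh1, 0.00801 for Icam1, 0.00815 for Cish, 0.00868 for Ccl6, 0.0107 for Cuedc1, 0.0128 for H2-Eb1, 0.0212 for Ccnd2, 0.0228 for Ogdh, 0.0388 for Eng, 0.0395 for Bhlhe40, 0.0397 for Dbp and 0.0479 for Nr1h3 among the others of that sign. Among those with a positive difference in all 3 states it was 5.55e-06 for Xaf1, 7.99e-06 for Mx1, 0.000234 for Rxra, 0.00066 for Ccl12, 0.000999 for Stat2, 0.00257 for Il4ra, 0.00309 for Tnfsf8, 0.00781 for Tgm1, 0.00895 for Sirpb1c, 0.0197 for Kdr, 0.0236 for Armcx2, 0.0431 for S100a8 and 0.0481 for Thra. Among those with mixed signs, adjusted p was 1.45e-10 for Rin2, 7.25e-07 for Tbc1d4, 7.85e-07 for Prps1, 8.93e-07 for Bcl3, 9.23e-07 for Col6a3, 2.09e-06 for Pcp4l1, 2.22e-06 for Plekho2, 2.22e-06 for Pstpip1, 2.85e-06 for Por, 2.85e-06 for Tpcn1, 1.33e-05 for Gbp9 and 1.33e-05 for Hk3. For the other genes with mixed signs it was 0.000304 for Ciita, 0.0201 for Hmgcs1 and 0.0305 for Insig1.

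In 4 of 66 groups of 5 libraries, over the 11 genes printed by library, 1 library lay far from the others of its group: Bgn in TRα1PV M0 replicate 2 at 0.419 CPM, Abca9 in TRα1PV M1 replicate 5 at 0.957 CPM, Tnfsf8 in WT M2 replicate 1 at 0.497 CPM and Slc36a2 in WT M1 replicate 2 at 0.0373 CPM. Each was the highest of its 5. Chance gives such a gap in about 1 of 20 groups of 5 (the critical share of the range is 0.71). The Slc36a2 value is a single read.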

How the results depend on the processing

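The counts of genes called on average were within 1.5 times of 1817 higher and 2294 lower under median-of-ratios scaling, DESeq2, voom, no low-count filter, the covariate, the additive model, 5 against 5 libraries and the leaving out of any 1 library. With a replicate block they were 1974 and 2392, with 1215 and 1680 of 1 sign, and the block moved none of these counts over 1.5 times and ended no call of a named gene. A block within genotype lowered them, to 1707 and 2059 with an estimated correlation and to 1496 and 1763 with libraries averaged to 5 against 5, which called 3105 of the 4111. With the percentage of no-feature reads as covariate they were 1889 and 1913, of which 2658 were among the 4111, and the cause was not tested. The choice of states also moved the counts: without M0 they were 943 and 1264 (659 and 987 with 1 sign), and without M1 2888 genes were higher. Tested against a fold of 1.2, 301 and 384 genes were called, 269 and 344 of them with 1 sign, since this test asks for a minimum size.

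Leaving out 1 library gave 1633 to 2440 higher and 2093 to 2909 lower genes on average, 1073 to 1304 and 1495 to 1875 with 1 sign, 89 to 126 and 167 to 247 in all 3 states, and 3189 to 5976 for the difference among states. Leaving out all 6 libraries of 1 number gave 1193 to 1862, 1560 to 2305, 846 to 1085, 1170 to 1502, 43 to 90 and 102 to 148, and 1195 to 5407. The lowest counts came without number 3 (43 and 102 in all 3 states, 1195 for the difference) and without number 5 (1193 higher and 1560 lower on average). Fewer libraries were fitted in these.

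Of the 97 named genes, 70 kept their sign and call under all 48 alternatives, and 14 lost the call only when tested against a fold of 1.2. Calls of Xaf1, Mx1, Gbp9, Pcp4l1, Plekho2 and Por were lost without M0 and those of Bcl3, Hmgcs1, Insig1 and Pstpip1 without M2. The average turned to 0.0126 for Por without M0, to -0.18 for Tpcn1 and 0.31 for Prps1 without M1, and to 0.0800 for Pstpip1 without M2. Low counts limit Col1a2, Bgn, Asb4 and Slc36a2, whose fitted folds have wide errors in M1.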
